A study of Mus musculus with 14 samples.

Results

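The microRNA (miRNA) hairpins numbered mir-6896 to mir-7094 were examined in small RNA released by adipose tissue macrophages (ATMs). They were taken from the authors' deposited table by number alone, ignoring suffix letters, and make up 99 of its 539 rows. The design text describes these cells of fat as CD11b+F4/80+. Exosomes, small vesicles that carry RNA between cells, were collected from medium in which the cells had been kept for 72 h with 10% exosome-free serum. The labels describe 7 libraries from obese and 7 from lean C57BL/6 mice and name no other allele or agent, nor how obesity was brought about. Age labels start at 24 weeks throughout, with upper ends of 26 to 32 weeks in the obese group and 33 to 39 weeks in the lean group, and step by 1 week per library in the order of listing. Age as labelled and obesity therefore cannot be told apart. The labels do not tie libraries to animals, so the p-values measure the spread between these libraries, which may be technical.

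The comparison asks which miRNAs differ between exosomes of obese and lean ATMs. The authors' deposited table gives each hairpin's log2 fold change, its mean log2 expression over both groups and its limma p-values, and holds 0 columns of values per library. Neither the group means nor the depth behind a row can therefore be shown. The group in the numerator of the fold changes is unstated, and directions are given as positive or negative. A publication on this material, not used here for values, found miR-155 raised in the obese group. Since mir-155 has a positive value in the authors' deposited table (4.41), the positive side would by that account be the obese one. A row is a hairpin, so its 5p and 3p arms are not separated, and whether values were corrected for length is not stated.

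Most miRNAs are cut from a longer transcript by the nuclease Drosha and then trimmed by Dicer. A mirtron skips Drosha: the spliceosome cuts out a short intron, the lariat is opened by a debranching enzyme, and the freed intron folds into a hairpin for Dicer. In a tailed mirtron 1 end of the hairpin is set by splicing and the rest of the intron has to be trimmed away. The number range was registered mainly from mouse mirtrons, and the level of such a miRNA depends on transcription and splicing of its host gene as well as on its own processing. What most of these small RNAs do in macrophages or fat is little known.

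The hairpins below show what an intron-derived hairpin looks like. They are printed 5′ to 3′ from RefSeq (GRCm38.p6), and capitals mark the GU that opens an intron (the donor site) and the AG that closes it (the acceptor site). The first lies at chr8:72470016-72470089 on the minus strand and the second at chrX:74274027-74274105 on the minus strand, and each is a whole intron. The third lies at chr7:45012426-45012487 on the minus strand and reaches only the acceptor.
mir-7068: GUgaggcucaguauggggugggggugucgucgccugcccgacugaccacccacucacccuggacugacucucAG
mir-7091: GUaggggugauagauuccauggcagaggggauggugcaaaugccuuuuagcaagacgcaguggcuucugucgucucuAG
mir-7054: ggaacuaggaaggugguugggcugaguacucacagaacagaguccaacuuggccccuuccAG

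The mature arms of some members follow, from the same RefSeq table, with the seed (bases 2 to 8, the stretch that pairs with targets) in capitals. RefSeq held no mature arms for mir-6981, which was also called. Shown are the called hairpins mir-7070 and mir-7054, 3 of the most abundant members (mir-7068, mir-6922 and mir-7091), and mir-7012 and mir-7057, whose 5p arms have the same seed but whose fold changes have opposite signs.
miR-7070-5p: gUGAGGGGagcugaggcagga
miR-7070-3p: cAGGCUCUccuucccuccag
miR-7054-5p: uAGGAAGGugguugggcugaguacu
miR-7054-3p: uCCAACUUggccccuuccag
miR-7068-5p: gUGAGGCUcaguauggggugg
miR-7068-3p: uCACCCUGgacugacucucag
miR-7091-5p: gUAGGGGUgauagauuccauggc
miR-7091-3p: aGUGGCUUcugucgucucuag
miR-6922-5p: uGUGGGAGgggacuguagagagg
miR-6922-3p: uGUUCUGCucacccuucucacag
miR-7012-5p: aAGGAGAGgaguuggcagggacu
miR-7012-3p: uGACCUGUggcuccucucccag
miR-7057-5p: cAGGAGAGgacucaaguu
miR-7057-3p: uAAUUUGAugucuuucuccacc

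Set against GENCODE M21 on GRCm38, 92 of the 99 hairpins (92.9%) ended exactly on the last base of an annotated intron of the same strand, against 11 of 440 other rows (2.50%). These positions are those of the annotation, not of reads, and the series was registered for such a fit, so they describe the label rather than test it. With 5 bases allowed at each end, 9 members spanned a whole intron and 83 met its acceptor only, the form with a 5′ tail. Another 3 met the donor only (mir-6977, mir-6936 and mir-6927), and 4 met neither end. Of those 4, mir-6904, mir-6914 and mir-6925 ran 6 or 7 bases past the acceptor into the exon, while mir-7036b starts 237 bases into an intron of Add1 that is 24255 bases long. By annotation alone, most but not all members thus reached the acceptor end of an intron.

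**Figure D1:**
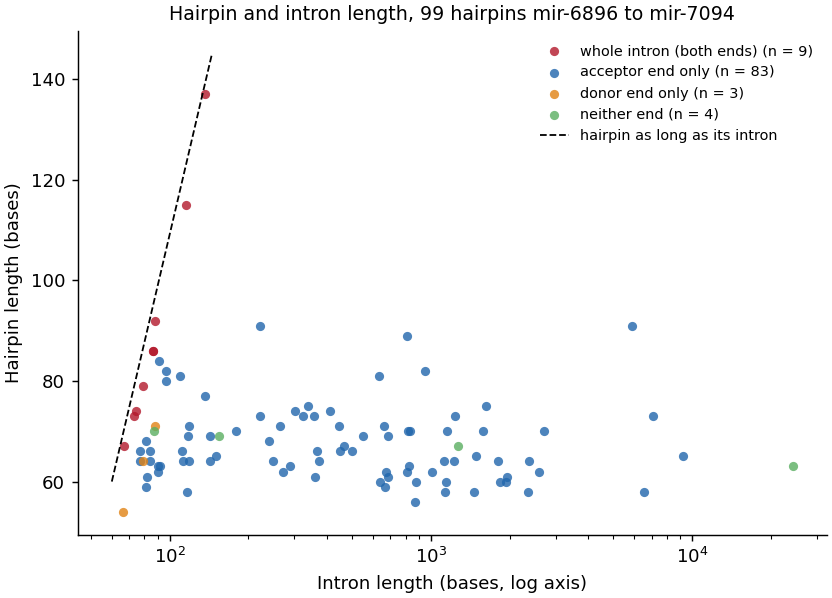
Hairpin length against the length of its intron (both in bases, intron axis logarithmic) for 99 hairpins, coloured by which intron ends the hairpin meets within 5 bases; the dashed line marks equal lengths. The 9 whole-intron hairpins lie on or next to the line, while the 83 acceptor-end hairpins spread to far longer introns with little change in hairpin length.

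The members lay in 96 host genes on 19 chromosomes, all of them protein-coding in GENCODE M21. Their hairpins had a median length of 66 bases, against 83 in the other rows, and a median GC content of 57.5% against 51.4%. For rows numbered above 4000 outside the range these medians were 75.5 bases and 55.6%. The host introns of the members ran from 66 to 24255 bases with a median of 356. In 23 members the hairpin overlapped an annotated exon, and in 12 of these it lay within a transcript annotated as keeping the intron. Reads of the small RNA and of unspliced host RNA cannot be told apart there. The same holds for the other members, since each hairpin overlaps an annotated intron. A run of 20 bases was shared with transcripts of another gene in 4 members, mir-7070 (Gm6015), mir-7047 (Fam71e1), mir-6907 (Hgsnat) and mir-7034 (Ppm1k).

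RefSeq held mature arms for 90 members. Of 87 annotated 3p arms 61 (70.1%) ended in AG, against 30 of 299 (10.0%) in the other rows, as in miR-7070-3p and miR-7054-3p above. The 5p arms were rich in G, with a median of 45.5% against 27.3% elsewhere, and the 3p arms rich in pyrimidines, with a median of 72.7% against 54.5%. Only 8 of 86 annotated 5p arms (9.30%) began with GU, among them those of mir-7070, mir-7068 and mir-7091. The seeds were diverse: 173 arms had 166 distinct seeds, and 7 seeds occurred in 2 members each. No such seed was shared by more members, and 10 further seeds were shared by 1 member with other rows of the table, such as GAGGGGC of miR-6921-5p and miR-423-5p.

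The members were scarce. In the authors' deposited table their mean log2 expression ran from −0.86 to 4.85 with a median of 0.30, against a median of 3.71 for the other 440 rows. Rows numbered above 4000 outside the range were scarce too, with a median of 0.92. Below the median of all rows, 2.34, lay 92 of the 99 members and 61 of these 79 rows. Below 0 lay 38 members and 28 of the 79. The highest members were mir-7070 (4.85), mir-7068 (4.71), mir-6922 (3.34), mir-7091 (3.03) and mir-6970 (2.53) in the authors' deposited table. Of these 5 hairpins 4 are whole introns, and mir-6922 is acceptor-ended. By position, the median in the authors' deposited table was 1.52 for the 9 whole-intron members and 0.26 for the 83 acceptor-ended ones. The ranges overlapped, from −0.42 to 4.85 and from −0.85 to 3.34, and no test of the difference was made.

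**Figure D2:**
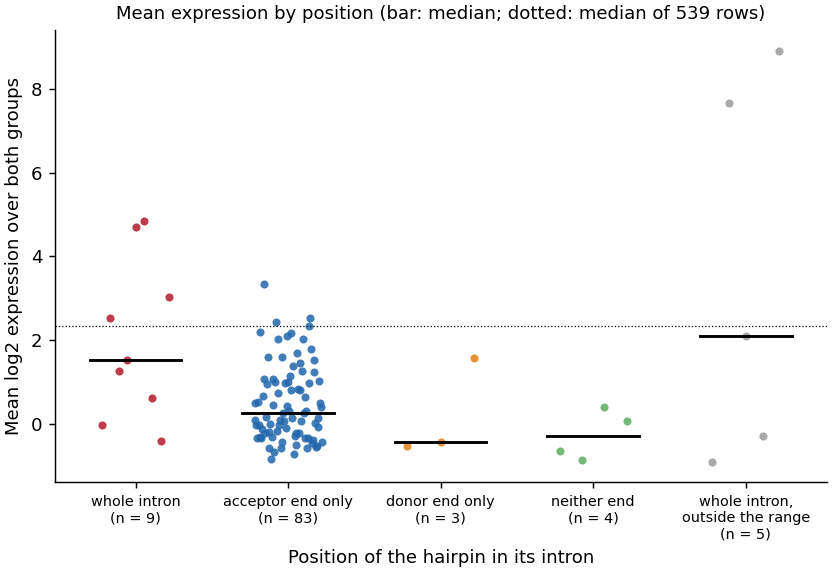
Mean log2 expression over both groups, as in the authors' deposited table, by where the hairpin sits in its intron; each point is a hairpin, bars are medians and the dotted line is the median of all 539 rows. The 9 whole-intron members reach 4.85 and have a median of 1.52, while the 83 acceptor-ended members have a median of 0.26.

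Across the comparison the members leaned to the negative side. A negative log2 fold change was found in 71 of 99 members (71.7%), against 184 of 440 other rows (41.8%), in the authors' deposited table, and the median was −1.07 against 0.25, with a median of 0.09 over all rows. Past a 4-fold difference were 30 members on the negative side and 1 on the positive side in the authors' deposited table, where 15% of all rows were past it on the negative and 5.01% on the positive side. At the threshold of an adjusted p under 0.05, limma called 3 members in the authors' deposited table, mir-7070, mir-7054 and mir-6981, all negative. That is 3.03% of the members, where 5.57% of all rows were called in either direction and 3.53% on the negative side, so the share called does not stand above that of the table. At an adjusted p under 0.1 there were 6 members, where 8.35% of all rows passed. No member was called on the positive side, where 2.04% of all rows were. At an unadjusted p under 0.05, 13 members were negative and 1 was positive in the authors' deposited table, where 9.09% of all rows passed on the negative and 8.53% on the positive side. When all fold changes were recentred by 0.34, the median of the 180 most abundant rows, 81 members (81.8%) and 237 other rows (53.9%) were negative.

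Rows numbered above 4000 outside the range were negative in 54 of 79 cases (68.4%), with a median of −0.42 in the authors' deposited table. For rows numbered from 1000 to below 4000 the values in the authors' deposited table were 39 of 87 (44.8%) and a median of 0.21. Below the median expression of 2.34, 65 of 92 members (70.7%) and 87 of 177 other rows (49.2%) were negative in the authors' deposited table, with medians of −1.08 and 0.07. Among these other rows were 38 of 61 (62.3%) numbered above 4000 and 20 of 45 (44.4%) numbered from 1000 to below 4000. Among members of mean log2 expression of at least 1, 25 of 30 were negative, from 0 to 1 it was 18 of 31, and below 0 it was 28 of 38, in the authors' deposited table. The other rows above 4000 were negative in 42 of 51 cases at a mean log2 expression of at least 0 and in 12 of 28 below 0, and those from 1000 to below 4000 in 31 of 75 and 8 of 12, in the authors' deposited table. These are counts over hairpins that share their libraries, and they carry no test. The part of library depth in the lean cannot be assessed, since the table holds no library totals.

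**Figure D3:**
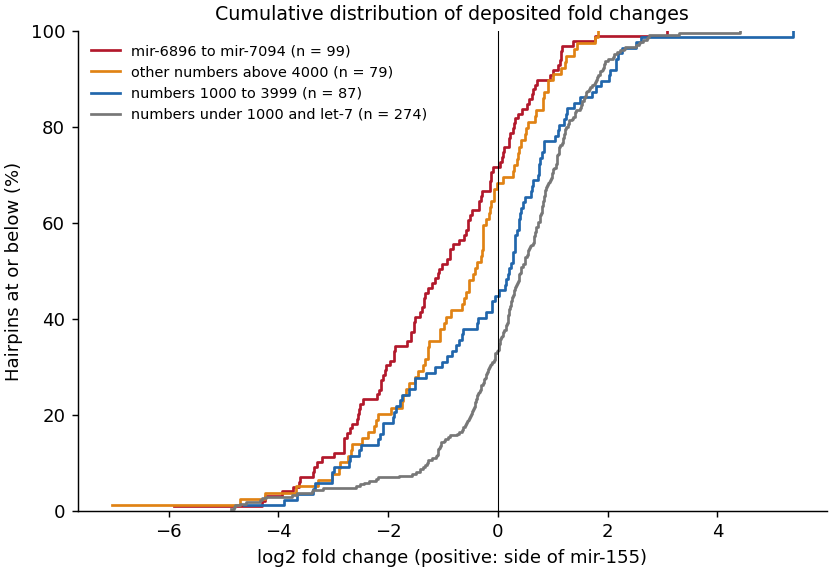
Cumulative share of hairpins (%) at or below each log2 fold change of the authors' deposited table, for the 99 members and 3 other number classes. The members' curve lies furthest to the negative side over most of its course, with 71.7% of them below 0, next to 68.4% for the other numbers above 4000.

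At the median, fold changes were less precise for members than for other rows. The standard error, computed as fold change over t from the authors' deposited table, had a median of 1.12 among members, from 0.77 to 1.64, against 0.95 in the other rows. The median error was 1.11 in rows numbered above 4000 outside the range. Below the median expression of all rows it was 1.13 for members and 1.08 for other rows, so most of this gap was shared by scarce rows. With the smallest absolute t that was called, 3.53, a member at the median error needed a log2 fold change of 3.96 to pass, against 3.36 for another row. Differences of several-fold in most members were therefore not detectable here.

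**Figure D4:**
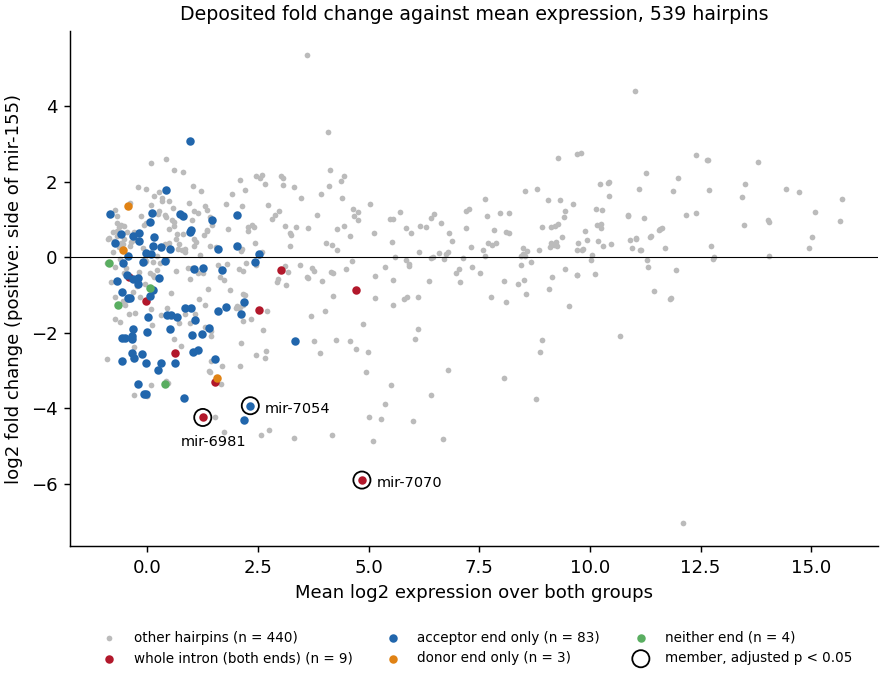
Fold change (log2) and mean log2 expression of 539 hairpins as given in the authors' deposited table, with the 99 members coloured by position in the intron and the 3 called ones ringed. The members crowd at the scarce end, below 4.85, and the 3 called ones lie between −3.93 and −5.90.

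The strongest member was mir-7070. It is the whole of an 86-base intron of Fbxw9, which encodes an F-box protein that picks substrates for ubiquitin ligases, at chr8:85062086-85062171 on the plus strand. Its 5p arm printed above starts on the first base of the intron with the donor GU, and its 3p arm ends on the last with AG. In the authors' deposited table the log2 fold change was −5.90 with a 95% interval from −8.24 to −3.56, a 59.8-fold difference (limma, adjusted p = 0.00299). It was also the most abundant member. Because it shares 20 bases with the gene model Gm6015, reads within the shared stretch could come from either locus. Whether that stretch covers a mature arm was not examined.

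The second called member was mir-7054, the acceptor end of a 272-base intron of Scaf1, whose product is a splicing-related factor that binds the tail of RNA polymerase II. In the authors' deposited table it stood at −3.93 (95% interval −5.73 to −2.13), a 15.3-fold difference (limma, adjusted p = 0.00873). Its mean log2 expression there was 2.33. The third, mir-6981, is a whole intron of 115 bases of Arap3, which encodes a GTPase-activating protein downstream of PI3-kinase. Its log2 fold change in the authors' deposited table was −4.24 with a 95% interval from −6.55 to −1.94 (limma, adjusted p = 0.0281), at a mean log2 expression of 1.25. A transcript that keeps this intron is annotated for Arap3. The intervals of the 3 called members overlap one another.

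Another 11 members had an unadjusted p under 0.05 without passing the adjusted threshold, 10 of them negative. The exception was mir-7057, the acceptor end of a 6553-base intron of the kinase gene Lrrk1, which the authors' deposited table puts at 3.08, with a 95% interval from 1.14 to 5.02 (limma, adjusted p = 0.0595). On the negative side mir-6925, in the kinesin gene Kif1c, stood at −3.36 in the authors' deposited table (limma, adjusted p = 0.0614). After recentring by 0.34 it passed, at −3.70 (adjusted p = 0.0345). The hairpin mir-7012, at the end of an 84-base intron of Dennd4b, a regulator of Rab GTPases, was at −4.30 in the authors' deposited table, with a wide interval from −7.33 to −1.26 (limma, adjusted p = 0.0970). Although larger than the fold change of mir-7054, this value came with a standard error of 1.44 against 0.86.

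The remaining 8 of these lay between −2.56 and −3.73 in the authors' deposited table, with adjusted p-values from 0.120 to 0.256. The lowest of them was mir-7036a at −3.73, in an intron of Srrt, whose product ARS2 links the cap-binding complex to miRNA processing. The whole-intron hairpin mir-7060 of Fbrs, 137 bases long, was at −3.30, and the donor-ended mir-6977 of the receptor phosphatase gene Ptprs at −3.21, in the authors' deposited table. Also among them were mir-6975 (−3.61) of the splicing and export helicase gene Ddx39b and mir-7072 (−2.75) of Nlrc5, a regulator of MHC class I genes, in the authors' deposited table. The others were mir-7078 (−3.62) of Cmip, mir-6931 (−3.37) of Dcakd and mir-6916 (−2.56) of the membrane-tethering gene Esyt1 in the authors' deposited table. The last 5 of these hairpins had mean log2 expression below 0.

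**Figure D5:**
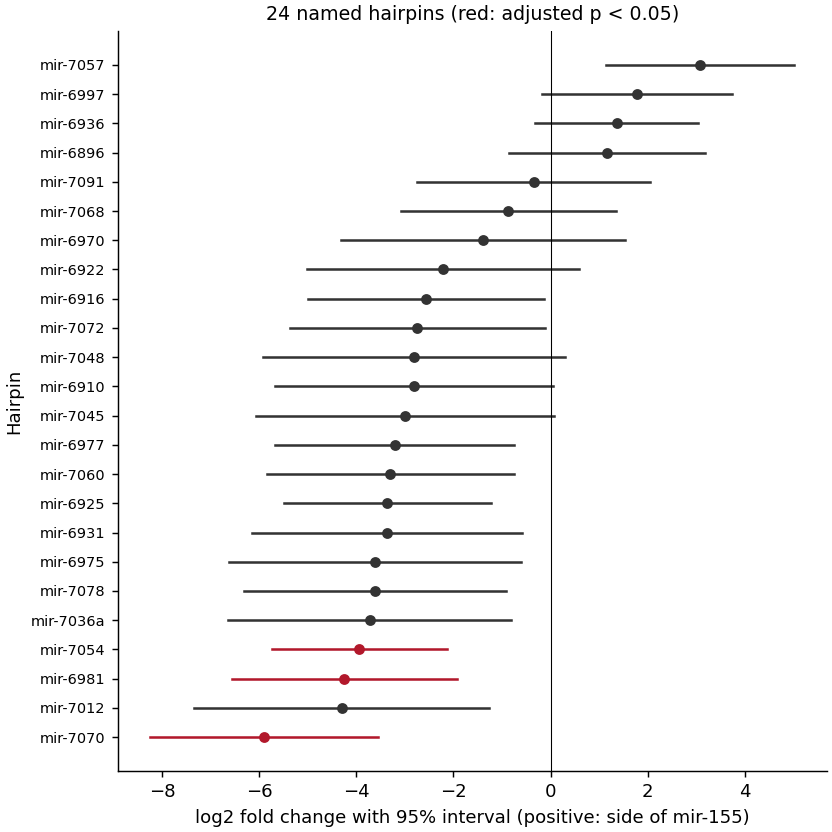
Log2 fold changes from the authors' deposited table with 95% intervals for 24 members, red where the adjusted p is under 0.05. The 3 red hairpins lie on the negative side, mir-7057 alone has an interval wholly above 0, and intervals are several log2 units wide.

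Of the 5 most abundant members the 4 after mir-7070 were not called. The second most abundant member, mir-7068, is a whole intron of Cherp, a gene of calcium handling and splicing, and the authors' deposited table puts it at −0.87, with limits of −3.08 and 1.34 (limma, adjusted p = 0.715). The hairpin mir-6922 lies in Srebf1, the gene of the lipogenic transcription factor SREBP-1, at chr11:60202262-60202327, and the authors' deposited table puts it at −2.21, with an upper limit of 0.59 (limma, adjusted p = 0.401). Nearest to 0 was mir-7091, a whole intron of Dnase1l1, for which the authors' deposited table has −0.35 (limits of −2.75 and 2.05). For mir-6970, a whole intron of Skiv2l, a helicase gene of cytoplasmic RNA decay, the authors' deposited table gives −1.39 with an interval from −4.30 to 1.53. A 4-fold difference on the negative side and a 2-fold one on the positive side lie within the intervals of mir-7068, mir-7091 and mir-6970.

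Beyond those named so far, the most positive members in the authors' deposited table were mir-6997 of the spectrin gene Sptan1 (1.78), the donor-ended mir-6936 of the deacetylase gene Sirt7 (1.36) and mir-6896 of the cytolinker gene Dst (1.17). The most negative were mir-7045 of the chromatin remodeller gene Chd4 (−2.99), mir-6910 of Ptbp1, which encodes a repressor of splicing (−2.81), and mir-7048 of Dedd2 (−2.80) in the authors' deposited table. None of these 6 passed, and their 95% intervals include 0. The lower and upper quartiles of the members were −2.15 and 0.11 in the authors' deposited table.

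By position in the intron, the 9 whole-intron members were negative without exception in the authors' deposited table, from −5.90 to −0.35 with a median of −1.39. Called among these were 2 of 9, mir-7070 and mir-6981, where 3.53% of all rows were called on the negative side; with so few hairpins nothing is read from this share. Of the 83 acceptor-ended members 57 were negative in the authors' deposited table, with a median of −1.02, and mir-7054 was called. The 3 donor-ended members ran from −3.21 to 1.36 and the 4 that meet neither end from −3.36 to −0.15 in the authors' deposited table. Members in introns under 150 bases were negative in 30 of 36 cases (median −1.55) and those in longer introns in 41 of 63 (median −0.57) in the authors' deposited table. These classes were set from annotation and hold scarce rows of wide error, and the differences between them were not tested. Without the 23 hairpins that overlap an exon, 54 of 76 (71.1%) were negative.

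Hairpins of the same host had the same sign in the 3 genes that hold 2 members each. As 71 of 99 members were negative, many pairs of members share a sign. Nothing is therefore read from these counts or from those of shared seeds below. In Srebf1, mir-6921 was at −1.59 and mir-6922 at −2.21 in the authors' deposited table. In Arap3, mir-6980 was at −2.14 beside the called mir-6981 at −4.24, and in Ankrd52, mir-6914 was at −0.15 and mir-6915 at −2.09, in the authors' deposited table. Of the 7 seeds held by 2 members each, 5 joined hairpins of the same sign in the authors' deposited table, and 5 also after recentring by 0.34. The 5p arms of mir-7012 and mir-7057 have the seed AGGAGAG, and the hairpins stood at −4.30 and 3.08 in the authors' deposited table, with opposite signs after recentring too. With the seed UGAGGGG, mir-7070 stood at −5.90 and mir-6927 at 0.19 in the authors' deposited table, and the latter turned to −0.15 after recentring. The pairs of the same sign were mir-7068 (−0.87) and mir-7023 (−2.66), mir-7034 (−0.55) and mir-7071 (−1.58), and mir-6904 (−1.27) and mir-6914 (−0.15), fold changes of the authors' deposited table. The others were mir-7030 (−0.72) and mir-7075 (−0.87), and mir-6927 (0.19) and mir-6945 (1.15), in the authors' deposited table, the last pair being of opposite sign after recentring.

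Hairpins known to bypass Drosha were also looked at outside the number range. Of 5 mirtrons listed (mir-702, mir-877, mir-1224, mir-1981 and mir-3102) limma called none in either direction in the authors' deposited table, and 3 were negative. In the authors' deposited table the unadjusted p was under 0.05 for mir-702 of Plod3, at −4.33 (adjusted p = 0.0581), and for mir-1224 of Vwa5b2, at −2.69 (adjusted p = 0.258). The most abundant mirtron of the list, mir-877 of Abcf1, had a mean log2 expression of 8.92 and a log2 fold change of −2.19 (limits of −4.54 and 0.16), both from the authors' deposited table. On the other side, mir-1981 was at 1.09 with a mean log2 expression of 7.67 in the authors' deposited table. Of the 5 endogenous short hairpins listed, which also skip Drosha but are not introns, 3 were in the table. None was called, and mir-320, mir-484 and mir-1839 stood at 0.25, −0.06 and 0.30 in the authors' deposited table, at mean log2 expression of 9.26 or more. Whole-intron rows of any number came to 14, of which 12 were negative and 2 were called. The 2 called were the members mir-7070 and mir-6981, where 3.53% of all rows were called on the negative side. Of the 5 whole-intron rows outside the range 3 were negative and 2 positive, and none was called.

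For the series as a whole, 30 of 539 rows were called in the authors' deposited table, 19 negative and 11 positive. The 8 macrophage and leukocyte hairpins listed had mean log2 expression from 4.17 to 15.02 in the authors' deposited table, 1 called on each side (mir-155 positive, mir-511 negative). The 16 hairpins of other cell types ranged from 0.11 to 11.81, the highest being the erythroid mir-486a, and 1 was called in the authors' deposited table. This was mir-365-2 on the negative side, at −3.75 (limma, adjusted p = 0.0266), where 3.53% of all rows were called. By contrast, mir-365-1 of the same list stood at 0.98 (limma, adjusted p = 0.591) in the authors' deposited table. By sign, 12 of the 16 were positive and 4 negative, with 5 of the 6 epithelial hairpins positive, in the authors' deposited table. The endothelial mir-126a had a mean log2 expression of 6.46 and the lymphocyte mir-150 of 3.24, levels above that of most members, in the authors' deposited table. The part of other cells in the members' values was not tested.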

How the data were processed

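Small RNA of ATM exosomes was sequenced in 7 obese and 7 lean libraries. The submitters' processing notes list edgeR, limma, Novoalign, Trimmomatic 0.30, FastQC and MultiQC, with no roles. Not given in the sources used here were genome build, annotation, normalization, strand use and treatment of reads with several matches. The authors' deposited table has the columns of limma's ranked results. Per the file headers, its fold change and mean expression columns are log2 values. The deposited t is a score (moderated t), both raw and adjusted p-values are deposited, and the deposited B, a natural log of odds, was not used. With 0 columns per library, no model was refitted and depth is unknown. The adjusted p equals a Benjamini-Hochberg adjustment over 539 rows (largest difference 1.46e-14).

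From t and p, 17.9 degrees of freedom were recovered (12 are residual for 2 groups). Standard errors were computed as fold change over t, with 95% intervals from these degrees of freedom. These functions were tested on simulated data. Rows were matched by symbol, or an older symbol in 16 rows (mir-7036a among the members), to GENCODE M21 (531 of 539 placed, with all 99 members). Each hairpin was compared with introns of same-strand transcripts, allowing 5 bases per end. Python 3.11.15, SciPy 1.17.1 and pandas 2.3.3 were used.

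Named were called members, those of unadjusted p under 0.05, the 5 most abundant, and the 3 most extreme others in each direction; mir-6927, mir-7023, mir-6945, mir-7071, mir-7030, mir-7075, mir-6921, mir-6980, mir-6914, mir-6915, the hairpins that meet neither end, and those sharing 20 bases with another gene were named beyond this rule for their seed, host or position after their values were seen. Members and lists were chosen with earlier results of these data known. Alternatives were an adjusted p under 0.1, a 2-fold minimum, recentring, leaving out rows under a mean log2 expression of 3.32 or sharing 20 bases, and other tolerances.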

Additional observations from a re-analysis of the deposited data

How the results depend on the processing

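Of 3 called members, 3 remained with a 2-fold minimum and 2 without rows that share 20 bases with another gene (as mir-7070 does). Without members that overlap an exon (mir-6981 does) 2 remained. Recentring by 0.34 gave 4, with mir-6925 added at an adjusted p of 0.0345. Calls outside the range moved as well. Among those added were mir-702, mir-671, mir-714, mir-3473a and mir-1195, and among those lost were mir-222, let-7i and mir-140. The change was thus not particular to the members. An adjusted p under 0.1 gave 6 calls, 5 of them negative. Leaving out rows under a mean log2 expression of 3.32 left 3 members and 1 call, mir-7070 (adjusted p = 0.00142), and the median log2 fold change of those 3 members was −2.21 against −1.07 for all 99. Taking whole-intron rows of any number gave 2 calls in 14, both members, where 3.53% of all rows were called on the negative side. The count of negative members was 81 of 99 after recentring, 43 of 61 at a mean log2 expression of at least 0, 54 of 76 without exon overlap and 12 of 14 by intron ends; these 4 settings, and the one without exon overlap for the calls, were chosen after seeing the data. Whole-intron members numbered 8 with 2 bases allowed and 10 with 10. Of 39 members tried, recentring reversed the sign of mir-6927 alone, from 0.19 to −0.15, and changed the call of mir-6925 alone. No paired analysis was possible because single libraries have no values here, and for the same reason no library was left out in turn. Unknown depth and standard errors near 1.12 limit what scarce members can show.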
